A study of Mus musculus with 19 samples.

Results

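The nuclear genes that encode the protein subunits of the mitochondrial respiratory chain and of ATP synthase were followed in mouse ovaries over the first year of adult life. They were chosen by symbol alone from a table of 36172 genes: every row whose symbol begins with Ndufa, Ndufb, Ndufc, Ndufs or Ndufv and a digit, is Sdha, Sdhb, Sdhc or Sdhd, or begins with Uqcr, with Cox4 to Cox8 or with Atp5. Of 86 such rows 1 pseudogene was dropped, which left 85 genes, 35 of complex I, 4 of complex II, 8 of complex III, 20 of complex IV and 18 of complex V. Of these, 80 passed the filter on low counts and were tested among 15518 genes. Cox6a2, Cox7b2, Cox8b, Cox8c and Atp5l2 did not pass it. Some names mislead: Atp5s and Atp5sl are not structural subunits of ATP synthase, and Cox7a2l has been described as a factor in joining complexes III and IV. Whether Cox7a2l has that role in these mice was not tested. Ndufa4, once assigned to complex I, is counted here with its relative Ndufa4l2 in complex IV. Ndufab1, Cyc1 and the subunits encoded in mitochondrial DNA lie outside the rule and were not analysed here.

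Ovaries came from female mice of the inbred strain C57BL/6, with no treatment or altered gene named in the labels. There were 5 libraries at 3 months of age, 5 at 6 months, 5 at 9 months and 4 at 12 months, and the 3 month libraries served as the reference for the other ages. Whether the libraries of an age are separate mice is not in the labels, so every p-value below rests on a spread between libraries that may be technical. The labels give neither the stage of the oestrous cycle nor a batch, and their numbering runs with age, so age and any order of handling cannot be told apart.

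Complexes I and II pass electrons from NADH and from succinate to ubiquinone, complex III passes them on to cytochrome c, and complex IV, cytochrome c oxidase, hands them to oxygen. Complexes I, III and IV pump protons across the inner mitochondrial membrane, and complex V, ATP synthase, lets them back to make ATP. Each complex other than complex II also contains subunits encoded in mitochondrial DNA, so that products of both genomes have to be assembled together. In the ovary, oocytes depend on mitochondrial respiration for maturation, and the first step of steroid synthesis takes place inside mitochondria of theca, granulosa and luteal cells.

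Library totals ran from 10851519 to 14302207 estimated counts. Levels are given as CPM, counts scaled to the depth of each library with TMM factors, and changes as log2 with a standard error (SE) from edgeR's quasi-likelihood test with Benjamini-Hochberg adjustment over all genes tested. All 8 oocyte genes, all 6 granulosa cell genes and all 4 theca cell genes looked up were above 0, as the ovary label has it. In whole tissue, fewer cells of a type and less RNA per cell cannot be told apart. Marker genes of several cell types moved with age beside every result below: the 8 oocyte genes summed to 55.7 to 132 CPM at 12 months and 284 to 447 CPM at 3 months, and the 8 macrophage genes to 823 to 1354 CPM at 12 months and 508 to 924 CPM at 3 months. The 7 smooth muscle genes summed to 1740 to 3709 CPM at 12 months and 1167 to 1796 CPM at 3 months, and the 4 theca cell genes to 317 to 354 CPM at 12 months and 692 to 1049 CPM at 3 months. The sums of the 6 granulosa cell genes overlapped, with 1085 to 2372 CPM at 12 months and 1536 to 2188 CPM at 3 months. Of the 7 smooth muscle genes 6 were above 0, and Acta2, a main smooth muscle actin, is listed at 0 in every library, so a gene listed at 0 in these files may still be expressed. The part of these cell types in the results was not tested. Transcripts typical of lymph node and B cells, liver or adipocytes stood out in single libraries, and whether they came from outside the ovary was not tested. The 6 lymph node and B cell genes summed to 219 CPM in 12 month replicate 2, 98.7 CPM in 9 month replicate 1 and 141 CPM in 9 month replicate 2, against 5.16 to 17.6 CPM in the other libraries, and results are given with and without these 3 libraries where they differ. The 5 liver genes summed to 190.0 CPM in 9 month replicate 2 and 614 CPM in 9 month replicate 3, against 10.6 to 84.5 CPM elsewhere. The 7 adipocyte genes summed to 2942 CPM in 9 month replicate 1 and 1585 CPM in 3 month replicate 3, against 244 to 1282 CPM elsewhere. The 12 corpus luteum genes summed to 13437 CPM in 12 month replicate 4, against 5953 to 7410 CPM in the other 12 month libraries. Their sums were 6256 to 11598 CPM at 3 months and up to 14271 CPM at 9 months. The count of calls in a fit with a luteal covariate is not given here.

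Together the 80 genes tested took between 0.944% (6 months) and 1.03% (12 months) of library depth after TMM scaling, as means of an age. Their summed level was 9923 ± 366 CPM at 3 months, 9436 ± 289 CPM at 6 months, 10193 ± 638 CPM at 9 months and 10350 ± 568 CPM at 12 months (SD, n = 5, 5, 5 and 4). The sums overlapped between ages, with 9595 to 10962 CPM in the 12 month libraries and 9521 to 10452 CPM in the 3 month libraries. Levels of different genes were compared per kilobase of transcript. On that scale the median was 74.5 CPM per kilobase over 35 genes of complex I, 99.1 over 4 of complex II, 125 over 8 of complex III, 211 over 12 of complex IV and 182 over 15 of complex V, without tissue-limited isoforms and the genes that share only a name. The highest were Atp5b, the catalytic beta subunit of the F1 head of ATP synthase (545), Atp5g3, one of the genes for the proton-carrying c ring (485), Cox4i1, the main form of subunit 4 of cytochrome c oxidase (475), and Cox6c, another small subunit of that complex (387). Within complex I the levels per kilobase differed by 3.57-fold between the highest and the lowest gene.

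Transcription of these genes is known to depend on factors such as NRF1, the ETS factor GABPA, YY1 and the oestrogen-related receptor ERRA, which bind short sequences near the start of transcription. RefSeq promoter windows (GRCm38.p6, 250 bases before to 50 bases after a start) were found for 69 of the 85 genes, 75 windows in all. The NRF1 letters GCGCNTGCG were present on either strand in 26 of the 75 windows (34.7%), against 11.3% of 15449 windows of genes tested and 6.31% of all 32851 windows. The ETS letters CCGGAAG were in 16 windows (21.3%, against 14.9% of the windows of genes tested), the YY1 letters AAGATGGCG in 9 (12%, against 2.41%) and the ERRA letters TCAAGGTCA in 2 (2.67%, against 0.278%). None of these motifs contains another, though the ETS and YY1 letters can share an AAG. A few windows are shown for what they carry, with the 250 bases before the start and the NRF1 and ETS letters of either strand in capitals. Cox6a1 (chr5:115348959-115349208, minus strand) has both motifs, Sdha (chr13:74350241-74350490, minus strand) has the NRF1 letters 3 times, Ndufa11 (chr17:56717512-56717761, plus strand) has them at 1 place on both strands, and Cox6b1 (chr7:30626115-30626364, minus strand) has only the ETS letters.
Cox6a1: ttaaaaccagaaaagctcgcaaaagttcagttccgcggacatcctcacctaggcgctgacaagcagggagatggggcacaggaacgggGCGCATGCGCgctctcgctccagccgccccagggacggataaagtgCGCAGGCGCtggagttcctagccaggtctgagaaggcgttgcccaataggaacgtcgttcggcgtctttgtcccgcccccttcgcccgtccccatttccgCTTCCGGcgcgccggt
Sdha: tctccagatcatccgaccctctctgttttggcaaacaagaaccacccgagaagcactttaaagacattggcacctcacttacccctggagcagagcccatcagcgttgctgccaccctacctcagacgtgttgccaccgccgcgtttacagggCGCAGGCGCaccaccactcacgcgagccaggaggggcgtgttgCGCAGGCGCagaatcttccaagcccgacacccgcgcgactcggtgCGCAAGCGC
Ndufa11: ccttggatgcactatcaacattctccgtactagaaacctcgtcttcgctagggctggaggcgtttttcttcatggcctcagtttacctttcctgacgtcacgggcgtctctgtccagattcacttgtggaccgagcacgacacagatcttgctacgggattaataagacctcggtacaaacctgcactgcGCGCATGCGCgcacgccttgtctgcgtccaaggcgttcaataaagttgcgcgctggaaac
Cox6b1: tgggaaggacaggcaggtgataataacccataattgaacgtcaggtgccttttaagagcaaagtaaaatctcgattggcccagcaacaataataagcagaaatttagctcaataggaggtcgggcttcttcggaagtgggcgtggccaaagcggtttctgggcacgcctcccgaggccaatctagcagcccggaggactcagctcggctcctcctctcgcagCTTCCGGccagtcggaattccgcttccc
In Cox6a1 the NRF1 letters stood at -162 to -154, overlapped by a match on the other strand at -161 to -153, and at -116 to -108, and the ETS letters at -16 to -10, counted back from the start of transcription. Of the 12 genes below that rose at 12 months and had a window, 3 (Ndufa11, Uqcr11 and Atp5d) had the NRF1 letters and 5 (Ndufb7, Uqcr11, Cox6b1, Cox8a and Atp5e) had the ETS letters. The YY1 letters were in 0 of the 12 and the ERRA letters in 0. Of all 69 genes with a window, 24 had the NRF1 letters and 16 the ETS letters. Matching letters describe a window and do not show that a factor binds there.

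Between 12 and 3 months, respiratory chain genes rose far more often than they fell, and cytochrome c oxidase held the most of those that rose. Of the 80 genes, 14 (17.5%) rose by the quasi-likelihood test, where 10.9% of all genes tested rose, and 1 (1.25%) fell, where 11.5% of all genes fell. The changes were small, with a median of 0.10 over the 80 genes and 0.02 over all genes (log2). Of the 14, 6 belonged to complex IV, 4 to complex I, 3 to complex V and 1 to complex III. The share of each complex that rose was 6 of 16 genes tested in complex IV, 3 of 17 in complex V, 1 of 8 in complex III, 4 of 35 in complex I and 0 of 4 in complex II. The median change was 0.21 for complex IV, 0.11 for complex III, 0.06 for complex I, 0.06 for complex II and 0.05 for complex V. In 9 of the 80 genes (11.2%) every 12 month library was above every 3 month library, against 6.74% of all genes, and in 1 (1.25%) every 12 month library was below, against 9.73% of all genes. The count rested in part on single libraries: it was 6 up and 0 down without 12 month replicate 3, 6 up and 1 down without 12 month replicate 4, 9 up and 0 down without 3 month replicate 3, and 22 up and 1 down without 12 month replicate 2. It was 6 up and 1 down when only the 3 and 12 month libraries were fitted, and 5 up and 0 down with a correction for transcript length and GC content. For the fits with fewer libraries in this paragraph the share of all genes called is not given. Their counts therefore cannot be read as particular to the 80 genes.

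**Figure D1:**
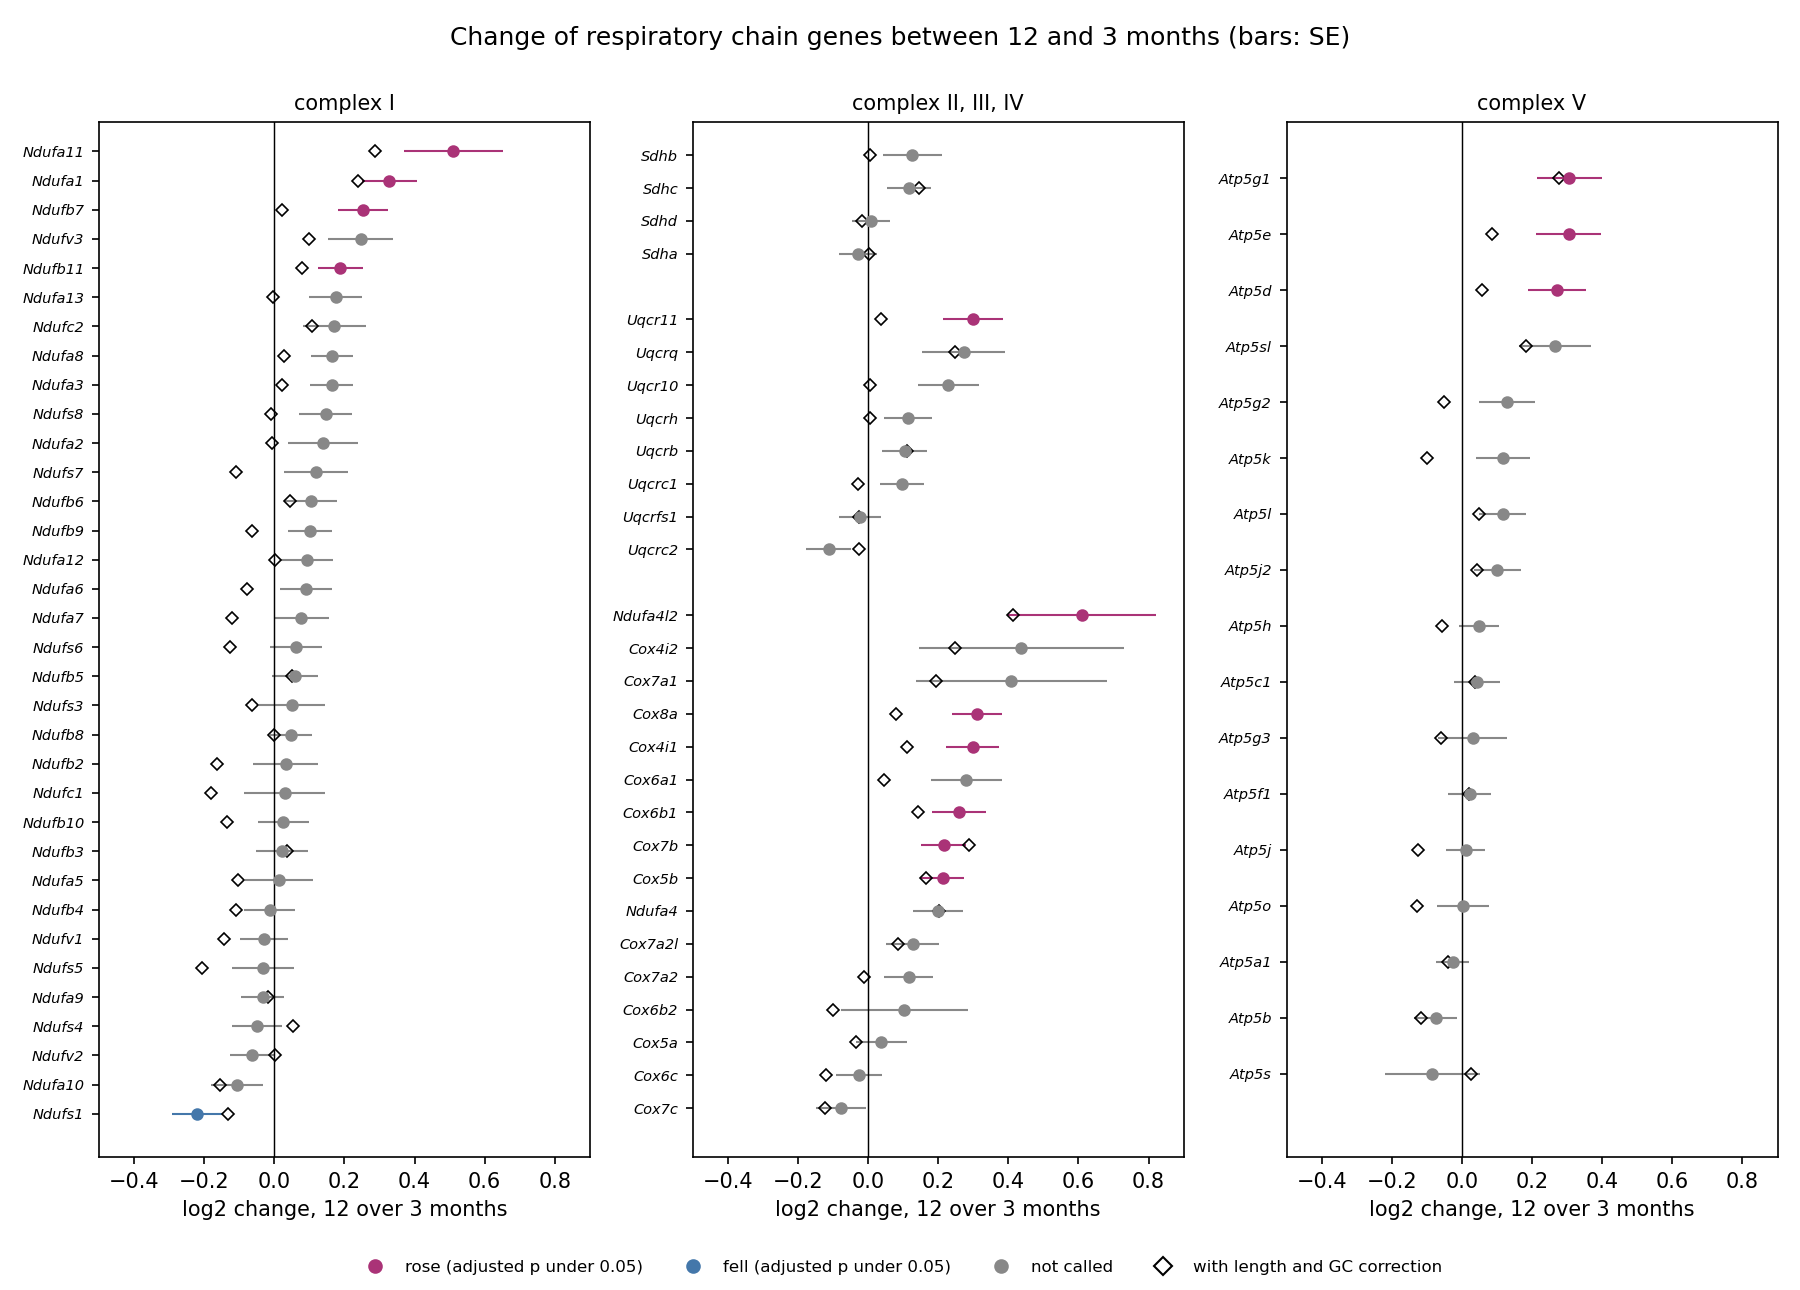
Change of respiratory chain genes tested between 12 and 3 months (x axis, log2; bars, SE), grouped by complex and ordered by size. Filled points are the changes as tested, coloured by call, and open diamonds are the same changes after a correction for transcript length and GC content; the 14 genes that rose lie between 0.19 and 0.61, the single gene that fell is Ndufs1 at -0.22, and the median over all 80 genes tested is 0.00 with the correction and 0.10 without it.

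In complex I, the NADH dehydrogenase, 4 of 35 genes rose and 1 fell, where 10.9% of all genes rose and 11.5% fell. Accessory subunits surround the core that carries the electron path and are needed for assembly and stability. Of 28 accessory genes 4 rose and 0 fell (median 0.08), and of 7 core genes 0 rose and 1 fell (median -0.03); the difference between the classes was not tested. Ndufa1, a small accessory subunit (chromosome X, 37187588 to 37191238, GRCm38.p6), had 49.1, 45.3, 61.3 and 53.6 CPM in the 12 month libraries and 43.7, 39.6, 44.4, 42.1 and 38.7 CPM in the 3 month libraries, with no overlap. It rose by 0.33 ± 0.08 (log2, SE; adjusted p = 0.00724) and kept the call when any single library was left out and with the length and GC correction. Ndufa11, a membrane-bound accessory subunit, had 52.8, 48.0, 74.7 and 41.5 CPM at 12 months and 43.0, 36.0, 36.4, 40.2 and 35.0 CPM at 3 months. These overlapped, and replicate 3 stood highest of the 12 month libraries (change 0.51 ± 0.14; adjusted p = 0.0160; 0.32 and no longer called without that library).

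A pair of accessory subunits of the membrane arm rose as well. Ndufb7 averaged 51.1 ± 5.86 CPM at 12 months and 42.9 ± 1.18 CPM at 3 months (SD, n = 4 and 5; change 0.25 ± 0.07; adjusted p = 0.0159). The call on Ndufb7 was lost without 12 month replicate 3 (0.23) or replicate 4 (0.18). Ndufb11 averaged 90.7 ± 4.83 CPM at 12 months and 79.6 ± 3.65 CPM at 3 months (change 0.19 ± 0.06; adjusted p = 0.0397), and leaving out any 1 of 7 libraries ended its call: 3 month replicates 1, 3, 4 and 5 (0.19, 0.19, 0.16 and 0.19) and 12 month replicates 1, 3 and 4 (0.17, 0.20 and 0.15). Ndufs1, the largest core subunit, which holds iron-sulfur clusters on the path from NADH (chromosome 1, 63143592 to 63176822), had 138, 139, 123 and 136 CPM at 12 months and 164, 153, 157, 146 and 160.1 CPM at 3 months. All 12 month values lay below all 3 month values, and Ndufs1 fell (change -0.22 ± 0.07; adjusted p = 0.0334). Its call was lost without 12 month replicate 3 (-0.18) and without 3 month replicate 1 (-0.20), replicate 3 (-0.22) or replicate 5 (-0.21). Core genes that were not called had changes of -0.03 (Ndufv1, the flavoprotein that takes electrons from NADH), -0.06 (Ndufv2), 0.05 (Ndufs3), 0.12 (Ndufs7) and 0.15 (Ndufs8).

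Complex II, succinate dehydrogenase, belongs both to the respiratory chain and to the tricarboxylic acid cycle, and none of its 4 genes was called by edgeR at 6, 9 or 12 months or along the trend. With the length and GC correction Sdhc was called along the trend (0.18 ± 0.06; adjusted p = 0.0394). Sdha, the flavoprotein that oxidizes succinate, had 402, 423, 429 and 422 CPM at 12 months and 442, 409.9, 451, 432 and 401 CPM at 3 months, which overlapped (change -0.03 ± 0.05; adjusted p = 0.745). The iron-sulfur subunit gene Sdhb averaged 109 ± 8.04 CPM at 12 months and 100.1 ± 5.40 CPM at 3 months (SD, n = 4 and 5; change 0.13 ± 0.08; adjusted p = 0.297). The membrane anchors Sdhc and Sdhd had changes of 0.12 ± 0.06 (adjusted p = 0.186) and 0.01 ± 0.05 (adjusted p = 0.928). A p above the threshold does not show that these levels were equal.

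In complex III, which passes electrons from ubiquinol to cytochrome c, 1 of 8 genes rose and 0 fell at 12 months. Of all genes tested 10.9% rose and 11.5% fell. Uqcr11, the smallest subunit, had 69.6, 60.1, 89.2 and 82.9 CPM at 12 months and 63.7, 63.4, 57.0, 62.1 and 60.4 CPM at 3 months, with replicate 2 of the 12 month libraries inside the range at 3 months (change 0.30 ± 0.09; adjusted p = 0.0188). Without 12 month replicate 3 its change was 0.21 and without replicate 4 it was 0.24, both no longer called. Uqcr10, another small subunit, passed only along the trend over age (0.28 ± 0.09 over 9 months; adjusted p = 0.0228), and not without 12 month replicate 3 or replicate 4 (0.23 and 0.25). The catalytic Rieske iron-sulfur protein gene Uqcrfs1 (-0.02) and the genes for the large core proteins, Uqcrc1 (0.10) and Uqcrc2 (-0.11), were not called at 12 months.

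In complex IV, cytochrome c oxidase, 5 of the 11 genes for the ubiquitous subunits rose at 12 months and 0 fell (median 0.21). Of all genes tested 10.9% rose and 11.5% fell. Cox4i1, the ubiquitous form of the subunit at which ATP regulates the enzyme, had 445, 342, 477 and 423 CPM at 12 months and 363, 329, 331, 351 and 339.8 CPM at 3 months. Replicate 2 of the 12 month libraries lay inside the range at 3 months and the other 3 lay above it (change 0.30 ± 0.08; adjusted p = 0.00988). Cox8a, the smallest subunit (chromosome 19, 7215158 to 7217616), had 149.6, 124, 163 and 167 CPM at 12 months and 122, 123, 124, 122 and 117 CPM at 3 months, all higher at 12 months though replicate 2 by little (change 0.31 ± 0.07; adjusted p = 0.00629). Both kept the call when any single library was left out, but with the length and GC correction their changes were 0.11 (Cox4i1) and 0.08 (Cox8a) and neither was called. Cox5b, a zinc-binding subunit on the matrix side, had 104, 90.7, 93.8 and 114 CPM at 12 months and 88.9, 87.7, 85.6, 82.8 and 88.3 CPM at 3 months, with no overlap (change 0.21 ± 0.06; adjusted p = 0.0204). Its call was lost without 12 month replicate 1 (0.20) or replicate 4 (0.14).

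Cox6b1, which lies where cytochrome c oxidase monomers meet, had 131, 119, 130.0 and 143 CPM at 12 months and 116, 103, 110.3, 106 and 112 CPM at 3 months, again without overlap (change 0.26 ± 0.08; adjusted p = 0.0218). It was lost without 12 month replicate 4 (0.21). Cox7b, an X-linked small subunit, had 91.7, 87.6, 88.5 and 89.3 CPM at 12 months and 88.2, 76.9, 73.8, 72.1 and 73.4 CPM at 3 months. The highest 3 month library overlapped the 12 month range (change 0.22 ± 0.06; adjusted p = 0.0220), and the call was lost without 12 month replicate 1 (0.20) and without 3 month replicate 3, 4 or 5 (0.20, 0.19 and 0.20). Cox6a1 and Ndufa4 missed the threshold at 12 months (changes 0.28 ± 0.10 and 0.20 ± 0.07; adjusted p = 0.0541 and 0.0507) and passed it along the trend. Of the other small subunits, Cox6c changed by -0.03 ± 0.07 and Cox7c by -0.08 ± 0.07, neither called. Cox7a2l averaged 268 ± 13.2 CPM at 12 months and 246 ± 16.5 CPM at 3 months (SD, n = 4 and 5; adjusted p = 0.237).

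**Figure D2:**
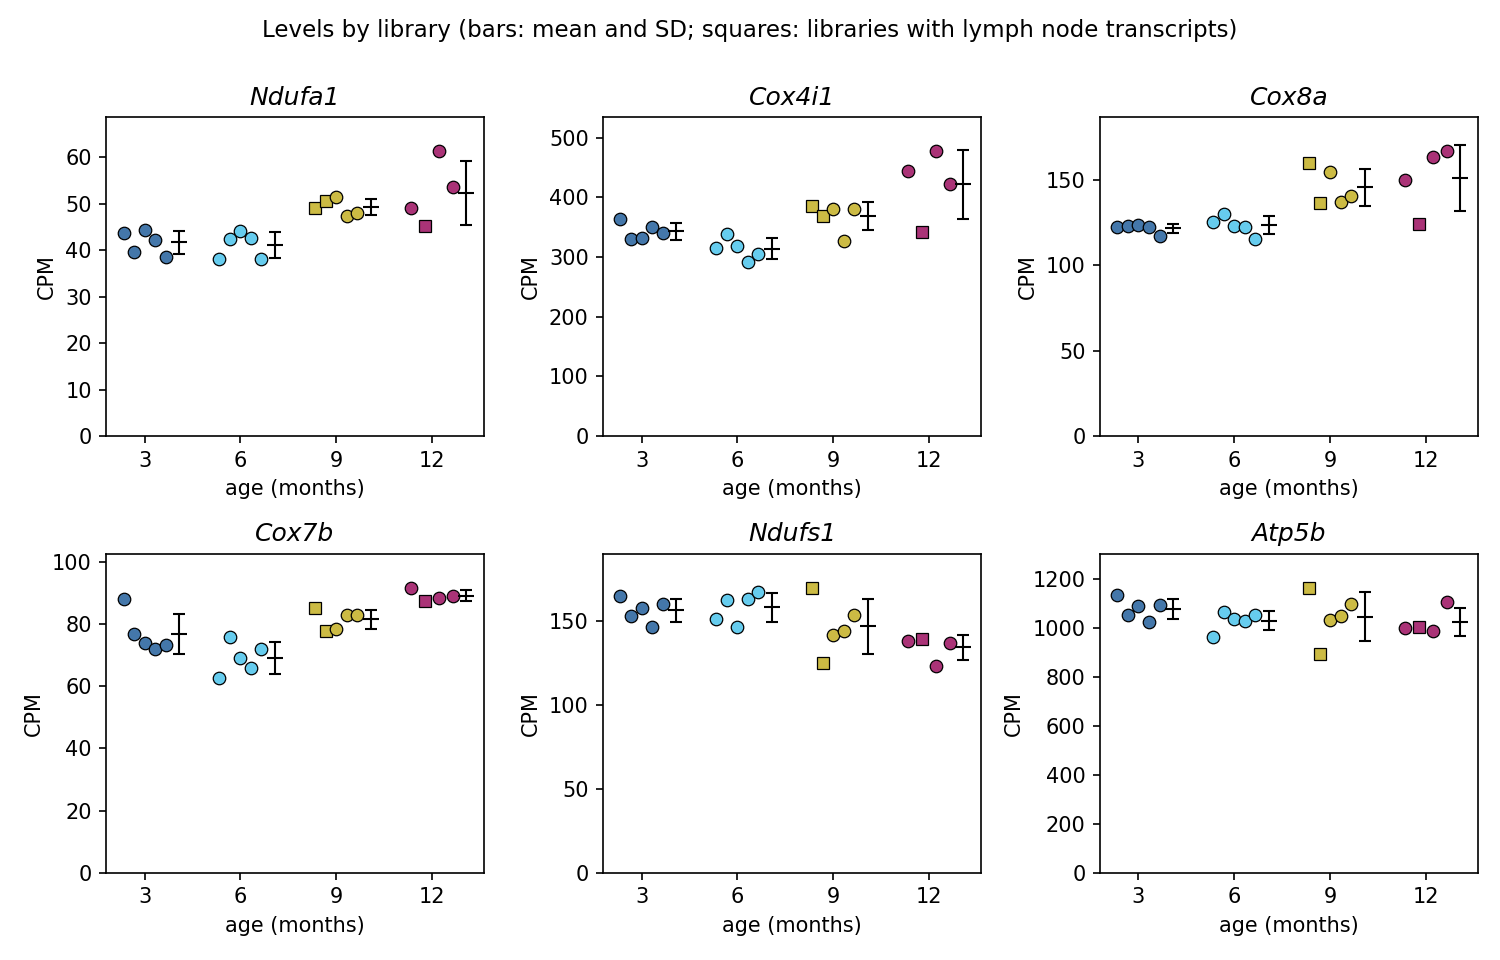
Level in CPM (y axis, from 0) of 6 genes in every library at 3, 6, 9 and 12 months (x axis); points are libraries, bars mean and SD, and squares mark the 3 libraries with lymph node transcripts. Ndufa1, Cox4i1, Cox8a and Cox7b had higher means at 12 than at 3 months with 12 month replicate 2 lowest of its age, Ndufs1 was lower, and Atp5b was not called.

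In complex V, ATP synthase, 3 of 17 genes rose and 0 fell, where 10.9% of all genes rose and 11.5% fell. The 17 include Atp5s and Atp5sl, which are not structural subunits. The products of the 3 that rose sit in 2 parts of the machine. Atp5d and Atp5e encode the delta and epsilon subunits of the rotor's central stalk, and Atp5g1 encodes 1 of 3 precursors of the same c ring protein. Atp5e had 107, 88.2, 121 and 121 CPM at 12 months and 100.4, 86.3, 85.7, 79.5 and 91.8 CPM at 3 months, with replicate 2 of the 12 month libraries inside the range at 3 months (change 0.30 ± 0.09; adjusted p = 0.0263). Atp5d had 109, 104, 133 and 142 CPM at 12 months and 97.7 to 105 CPM at 3 months, with replicate 2 of the 12 month libraries just inside that range (change 0.27 ± 0.08; adjusted p = 0.0255). The calls on both were lost without 12 month replicate 3 (0.26 and 0.23), replicate 4 (0.24 and 0.18) or 3 month replicate 3 (0.29 and 0.26), and that on Atp5e also without 3 month replicate 4 (0.27).

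Atp5g1 had 71.0, 71.3, 88.2 and 83.6 CPM at 12 months and 68.7, 64.4, 65.3, 60.9 and 58.3 CPM at 3 months, with no overlap (change 0.31 ± 0.09; adjusted p = 0.0245). Its call was lost without 12 month replicate 3 (0.25), 12 month replicate 4 (0.27) or 3 month replicate 5 (0.28). The other c ring genes were not called, with changes of 0.13 ± 0.08 for Atp5g2 and 0.03 ± 0.10 for Atp5g3. Of the counts of the 3 genes, Atp5g1 held 13.6 ± 0.79% at 12 months and 11.7 ± 0.64% at 3 months (SD, n = 4 and 5). Atp5b, the catalytic subunit and the most abundant of all the genes, had 997, 1003, 986 and 1107 CPM at 12 months and 1132, 1051, 1090, 1025 and 1091 CPM at 3 months, which overlapped (change -0.08 ± 0.06; adjusted p = 0.407). The alpha subunit gene Atp5a1 changed by -0.03 ± 0.05, and the 4 genes of the peripheral stalk had changes between 0.00 and 0.05. Atp5sl rose along the trend (0.31 ± 0.10; adjusted p = 0.0228; 0.27 without 3 month replicate 2 and 0.27 without 12 month replicate 1, neither called).

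Complex IV has isoforms that are limited to certain tissues, and of 8 such genes Cox4i2, Cox6b2, Cox7a1 and Ndufa4l2 passed the filter on low counts, whereas Cox6a2, Cox7b2, Cox8b and Cox8c did not. The testis form Cox8c is listed at 0 in every library. Cox7b2, another testis form, was above 0 in 2 libraries, at 0.0729 and 0.158 CPM, and the heart and muscle form Cox6a2 was at 0 to 0.578 CPM. The testis form Cox6b2 was present in every library, with 6.62, 4.34, 7.39 and 5.60 CPM at 12 months and 7.14, 4.73, 4.63, 6.81 and 4.74 CPM at 3 months (change 0.10 ± 0.18; adjusted p = 0.716), while 4 testis genes summed to 0 to 1.65 CPM. Per length, Cox6b2 was 4.36 to 8.24% of Cox6b1 and Cox6b2 together.

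Ndufa4l2, a relative of Ndufa4 that is induced by low oxygen, had 4.61, 3.06, 5.24 and 5.80 CPM at 12 months, 5.44, 4.25, 4.56, 5.03 and 5.17 CPM at 9 months and 2.92, 3.14, 3.16, 2.48 and 3.64 CPM at 3 months. All 9 month values lay above all 3 month values, and at 12 months replicate 2 lay inside the range at 3 months. It rose by 0.61 ± 0.21 at 12 months (adjusted p = 0.0434) and by 0.67 ± 0.20 at 9 months (adjusted p = 0.0195). The call at 12 months was lost without any 1 of 8 libraries: 3 month replicates 1 to 4 (0.60, 0.62, 0.62 and 0.54), 9 month replicate 3 (0.61) and 12 month replicates 1, 3 and 4 (0.62, 0.55 and 0.48). Per length it was 2.16 ± 0.56% of Ndufa4 and Ndufa4l2 together at 12 months and 1.62 ± 0.14% at 3 months (SD, n = 4 and 5). Cox4i2, the form of subunit 4 found in lung and in cells at low oxygen, averaged 3.49 ± 1.45 CPM at 12 months and 2.59 ± 0.325 CPM at 3 months and was not called (change 0.44 ± 0.29; adjusted p = 0.297).

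Cox8b, the form of heart, skeletal muscle and brown fat, was too low to be tested but differed widely between libraries of 1 age. It had 0.450, 0.596, 3.30, 0.729 and 0.0728 CPM at 3 months, 0.548, 0, 0.160, 0.798 and 0.349 CPM at 6 months, 4.50, 0.432, 0.380, 0 and 0.609 CPM at 9 months and 0.313, 0.153, 0.0742 and 0.151 CPM at 12 months. The libraries with the highest values, 3 month replicate 3 and 9 month replicate 1, were also those with the highest levels of the adipocyte hormone gene Adipoq, 161 and 269 CPM. The next highest library for Adipoq, 3 month replicate 4 (146 CPM), had 0.729 CPM of Cox8b. Of 5 brown fat genes 4 were above 0, and the 5 summed to 25.3 CPM in 3 month replicate 3 and 23.8 CPM in 9 month replicate 1, within the 14.3 to 34.8 CPM of all libraries. Most of that sum came from Dio2, which activates thyroid hormone (8.54 to 26.7 CPM), and Cidea, a lipid droplet protein (3.44 to 10.8 CPM), while Elovl3 ranged over 0 to 7.39 CPM and Ucp1 is listed at 0 throughout. Of 9 skeletal muscle genes 8 were above 0, with sums of 51.3 to 95.1 CPM at 12 months and 41.9 to 52.6 CPM at 3 months. The skeletal muscle actin Acta1 made up most of these, with 39.6 to 91.2 CPM over all libraries, whereas Ckm reached 0.899 CPM at most and Myh4 is listed at 0. Where the transcripts of Cox8b came from was not tested. The related isoform Cox7a1 was not called, with 2.89 ± 1.10 CPM at 12 months and 2.16 ± 0.521 CPM at 3 months (SD, n = 4 and 5; change 0.41 ± 0.27; adjusted p = 0.296).

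**Figure D3:**
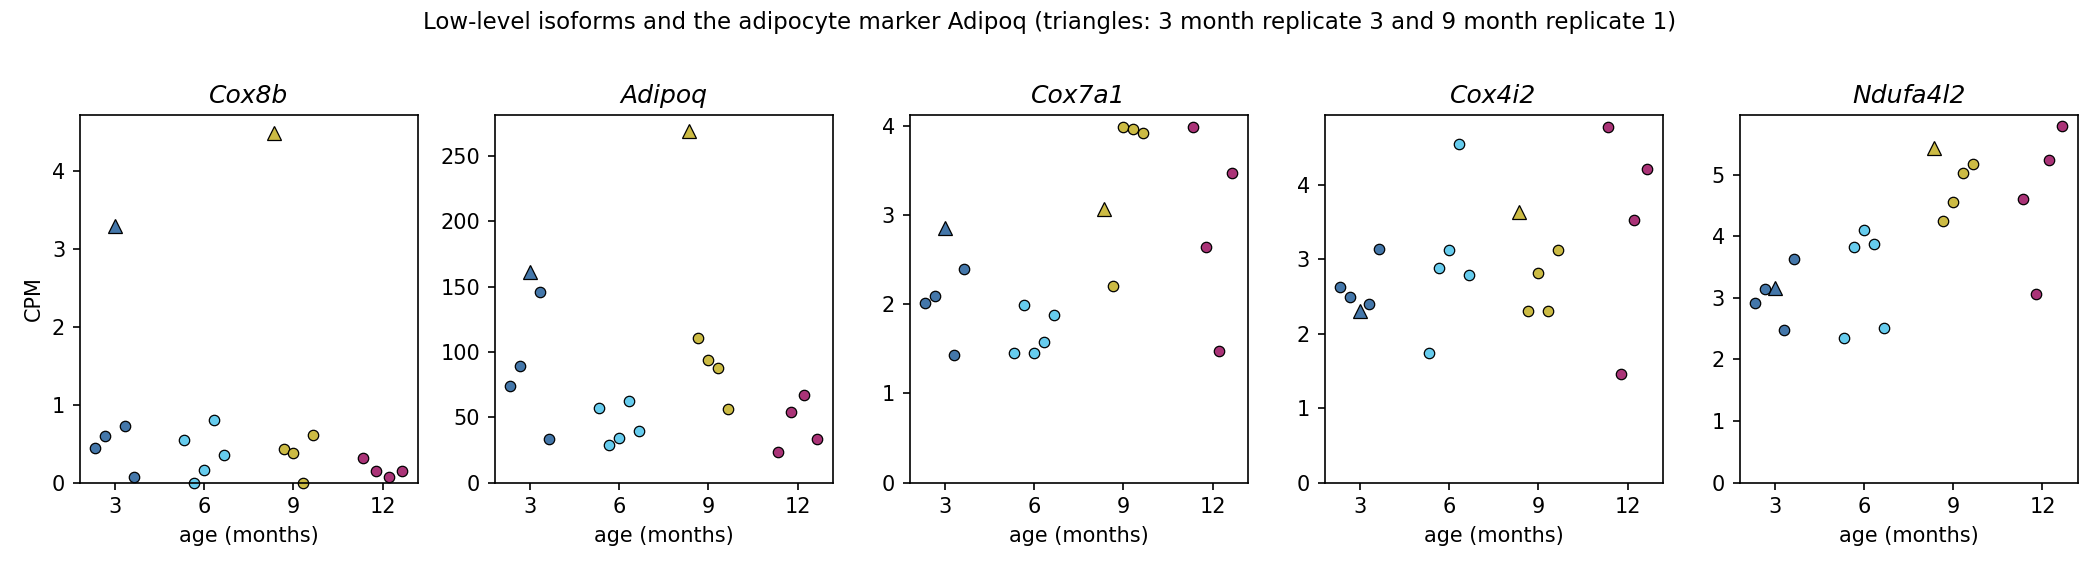
Level in CPM (y axes, from 0) of the low-level isoforms Cox8b, Cox7a1, Cox4i2 and Ndufa4l2 and of the adipocyte gene Adipoq in every library at 3, 6, 9 and 12 months (x axes). Triangles mark 3 month replicate 3 and 9 month replicate 1, which are highest for Cox8b (3.30 and 4.50 CPM) and for Adipoq (161 and 269 CPM).

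At 6 months most estimates lay below 0, though no gene passed the adjusted threshold by edgeR. At 6 months 0 of the 80 genes were called by edgeR and 0 by DESeq2, where 0.0193% of all genes were called by edgeR, and limma-voom called 1 (Ndufa6, lower). At an unadjusted p under 0.05 there were 14 (17.5%), all lower at 6 months, against 9.85% of all genes in either direction. Only 12 of the 80 genes had a positive estimate at 6 months, against 7732 of all 15518 genes, and the median change was -0.10 (-0.03 with the length and GC correction). Low estimates were not particular to these genes. Of 83 cytosolic ribosome genes 0 were positive (median -0.17), of 22 mitochondrial import genes 0 (-0.18) and of 76 mitochondrial ribosome genes 2 (-0.12). With the correction these medians were -0.09, -0.14 and -0.09. Of 18 tricarboxylic acid cycle genes 5 were positive (-0.05), and of 15 glycolysis genes 7 (-0.02). Ndufa6, an accessory subunit of complex I, had the smallest p of the 80 at 6 months (-0.25 ± 0.07; adjusted p = 0.325), with 68.8, 66.8, 66.8, 65.8 and 64.0 CPM at 6 months and 74.9, 76.0, 83.9, 80.0 and 80.8 CPM at 3 months. All its 6 month values lay below all its 3 month values. By complex the median change at 6 months was -0.11 for complexes I and IV, -0.09 for complex III, -0.08 for complex V and 0.02 for complex II.

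At 9 months 5 genes (6.25%) rose, where 11.3% of all genes rose, and 0 fell, where 13.6% of all genes fell. They were Ndufa1, Ndufb11, Cox8a, Ndufa4 and Ndufa4l2, and 3 of the 5 belong to complex IV. Cox8a had 159.7, 136, 154, 137 and 140.4 CPM at 9 months, above all its 3 month libraries, and 126, 130.0, 123, 123 and 116 CPM at 6 months, around them (change at 9 months 0.26 ± 0.07; adjusted p = 0.0101). Ndufa4, the subunit once placed in complex I, had 149, 129.8, 144, 135 and 143 CPM at 9 months and 126, 127, 117, 106 and 129 CPM at 3 months, with no overlap (change 0.21 ± 0.07; adjusted p = 0.0270). Ndufa1 was also above all its 3 month libraries at 9 months, with 49.2, 50.6, 51.6, 47.3 and 48.0 CPM (change 0.24 ± 0.07; adjusted p = 0.0230). Ndufb11 changed by 0.19 ± 0.06 (adjusted p = 0.0285). Without 9 month replicate 3 the calls on Ndufa4 (0.20), Ndufa1 (0.22) and Ndufb11 (0.14) were lost, as was that on Ndufa1 without 3 month replicate 2 or 5 (0.22 and 0.23) and that on Ndufb11 without 3 month replicate 4 (0.17). The count at 9 months was 2 without 9 month replicate 3, 8 without 3 month replicate 1, 9 without 6 month replicate 1 or 12 month replicate 3, and 10 without 9 month replicate 2 or 12 month replicate 2. The share of all genes called in these fits is not given here. The comparisons at 6, 9 and 12 months share the 3 month libraries.

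Along a straight trend over all 4 ages, 20 genes (25.0%) rose, where 14.7% of all genes rose, and 1 (1.25%) fell, where 14.8% of all genes fell. These were the 15 genes called at 12 months and 6 more that rose: Ndufv3 (0.27 ± 0.09 over 9 months; adjusted p = 0.0217) and Ndufa3 (0.21 ± 0.07; 0.0373) of complex I, Uqcr10, Cox6a1 (0.30 ± 0.10; 0.0319), Ndufa4 (0.29 ± 0.09; 0.0229) and Atp5sl. Cox8a had the smallest p of all along the trend (0.35 ± 0.07; adjusted p = 0.00160). Of the 6, Ndufv3 and Cox6a1 were lost without 12 month replicate 3 (0.24 and 0.25) or replicate 4 (0.24 and 0.21), and Ndufa4 without 12 month replicate 1 (0.25). Ndufa3 was lost without 3 month replicate 2 or 5 (0.21 and 0.22), 9 month replicate 3 (0.20) or 12 month replicate 1, 3 or 4 (0.20, 0.20 and 0.19). Among the 15, the trend call was lost without any 1 of 8 libraries for Atp5g1, of 3 for Atp5e and of 2 for Ndufb7. That on Ndufa11 and Ndufs1 was lost without 12 month replicate 3, and that on Cox7b without 12 month replicate 1. The others of the 15 kept theirs. The count along the trend was 13 without 12 month replicate 3, with the share of all genes in that fit not given here. With the length and GC correction 5 genes rose along the trend (6.25%, where 13% of all genes rose) and 2 fell (2.5%, where 12.6% fell). The 5 were Ndufa1, Sdhc, Cox5b, Cox7b and Ndufa4, and those that fell were Ndufv1 (-0.14 ± 0.05; adjusted p = 0.0483) and Atp5j, a peripheral stalk subunit of ATP synthase (-0.14 ± 0.05; adjusted p = 0.0298).

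**Figure D4:**
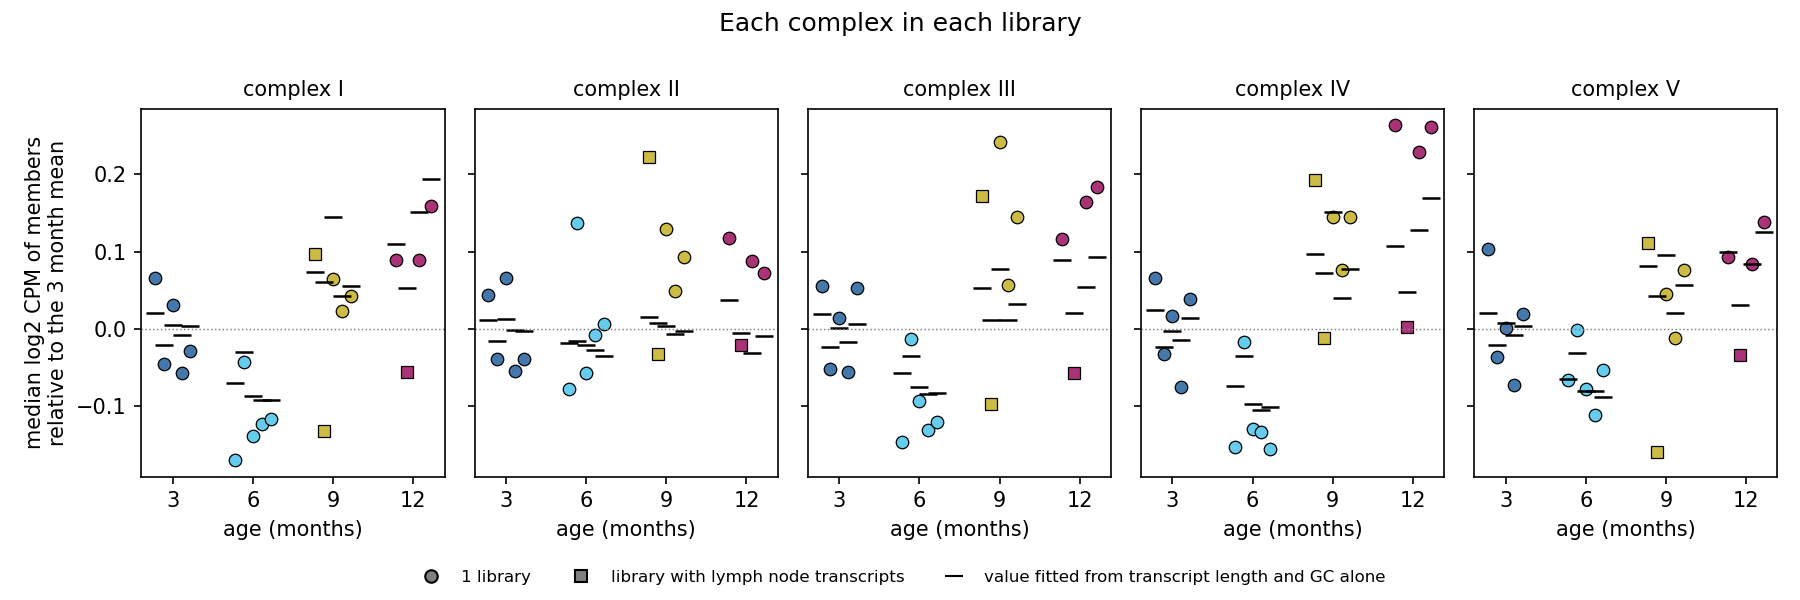
Median over the tested genes of each complex in every library (y axis, log2 CPM relative to the mean of the 3 month libraries) at 3, 6, 9 and 12 months (x axis); squares are the libraries with lymph node transcripts and dashes the value fitted for that library from transcript length and GC content alone. At 6 months 5 of 5 libraries are below 0 for complexes I, III, IV and V, and at 12 months replicates 1, 3 and 4 of complex IV lie at 0.23 to 0.26 and replicate 2 at 0.00.

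The medians of all 5 complexes were lowest in the same library at 9 months and in the same library at 12 months. The median of complex IV was 0.26, 0.00, 0.23 and 0.26 in 12 month replicates 1 to 4, relative to the mean of the 3 month libraries (log2), and -0.08 to 0.07 in the 3 month libraries. For complex V it was 0.09, -0.03, 0.08 and 0.14 at 12 months and -0.07 to 0.10 at 3 months. In 12 month replicate 2, the library with the most lymph node transcripts, all 5 medians were below those of the other 12 month libraries. The same held at 9 months for replicate 2 against the other 9 month libraries, with medians of -0.16 for complex V and -0.01 for complex IV. Across the 19 libraries, after each gene was centred on its mean at each age, pairs of the 76 genes other than the tissue-limited isoforms had a median Pearson r of 0.44 (2850 pairs), as a description of genes that share libraries, scaling and depth. Atp5e (r = 0.91 with the median of the other genes), Atp5j2 (0.89) and Uqcrq (0.86) followed the rest most closely. Atp5sl (-0.14) and Cox7a2l (-0.13), neither a structural subunit, were the only 2 of the 76 with a negative value, and 61 of the 76 had an r of at least 0.5.

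Leaving out the 3 libraries with lymph node transcripts raised the count at 12 months to 23 genes up (28.8%, against 12.1% of all genes) and 1 down (1.25%, against 12.9%). With the length and GC correction as well, the count was 7 up (8.75%, against 9.71%) and 0 down (against 9.48%). The 7 were Ndufa1, Cox5b, Cox7b, Cox8a and Atp5g1 of the 14, and Ndufa4 and Uqcrq. Without the correction, Ndufs1 remained the gene that fell (-0.24 ± 0.06), and all 14 genes that rose with all libraries were among the 23. The 9 others were Ndufv3, Ndufa2, Ndufa8 and Ndufa13 of complex I, Uqcrq and Uqcr10 of complex III, and Cox6a1, Ndufa4 and Cox4i2 of complex IV. Cox8a then changed by 0.39 ± 0.06 and Cox4i1 by 0.39 ± 0.06. Of these 9, 5 overlap another gene: Cox4i2 shares 6308 bases with Bcl2l1, Ndufa13 shares 375 with Tssk6, Uqcr10 shares 225 with the long noncoding RNA Gm51883 and Ndufa2 shares 69 with Tmco6. Uqcrq shares 58 bases on chromosome 11 (53430774 to 53430831, GRCm38.p6) with Gdf9, an oocyte growth factor gene that changed by -1.81 ± 0.37 with all libraries. Strand use in counting is not given in the sources used here, so reads of the shared bases cannot be told apart.

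The genes share a feature that the choice by name did not use: their median transcript is short. The median length was 769 bases over the 80 genes and 2860 bases over 14858 genes tested that have a length, though Sdhc (3171 bases) and Sdha (2900 bases) exceeded the median of all genes, and the median GC content was 51.7% and 50.5%. Across genes, which are not independent replicates, the change at 12 months went with both features, with a Spearman rho of -0.36 with length and 0.47 with GC content among the 80 and -0.17 and 0.28 among all genes. Among the 27 of the 80 richest in GC (54.4 to 61.1%) 8 rose with a median change of 0.23, and over all genes in that range 18.3% rose with a median of 0.13. Among the 27 poorest in GC (39.0 to 49.9%) 3 rose with a median of 0.04, and over all genes in that range 6.41% rose with a median of -0.07. Among the 27 shortest (315 to 623 bases) 7 rose with a median of 0.12, against 15.7% and a median of 0.14 over the 217 genes in that range. Among the 27 longest (1046 to 3171 bases) 1 rose with a median of 0.01, against 13.1% and a median of 0.05 over the 7351 genes in that range.

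**Figure D5:**
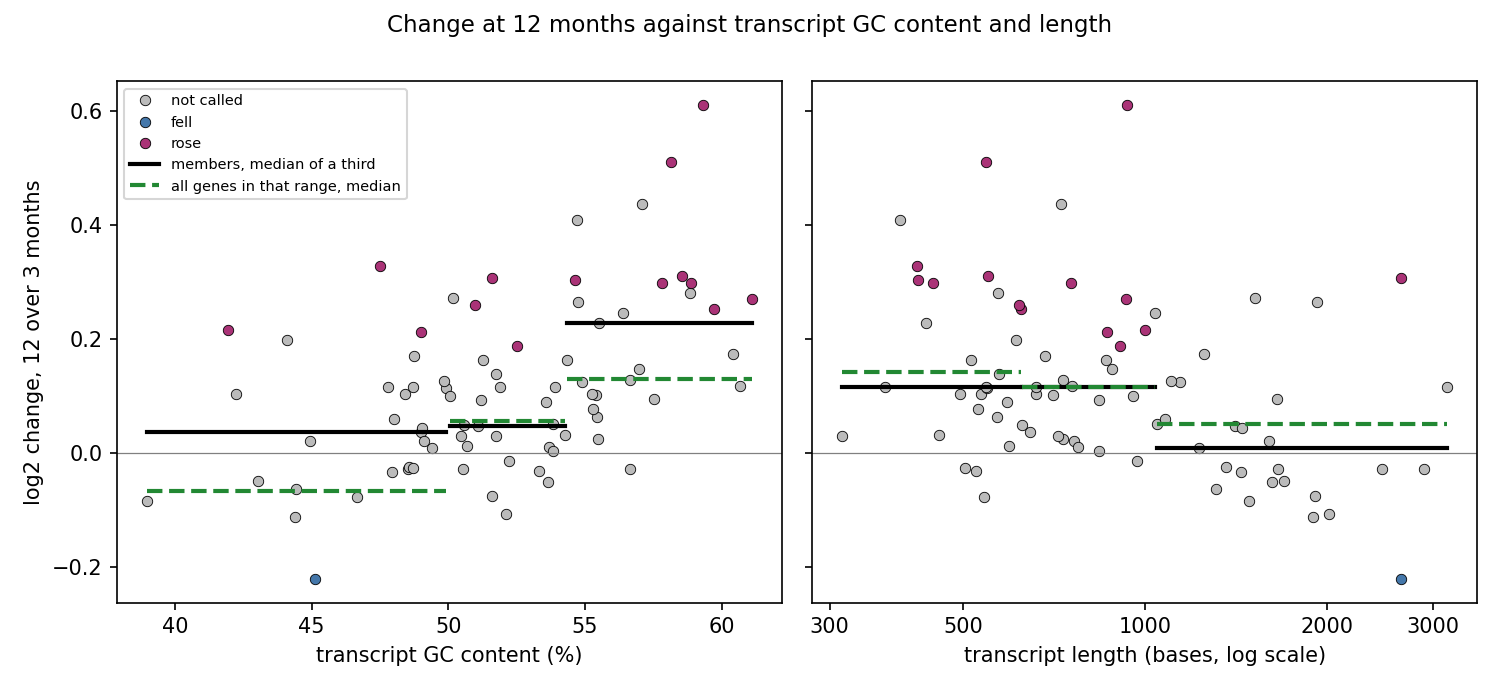
Change at 12 against 3 months (y axis, log2) of the 80 genes against transcript GC content (left, %) and transcript length (right, bases on a log scale). Points are genes coloured by call, black lines the median of each of 3 bins of 26 or 27 genes and green dashed lines the median of all genes tested in the same range; in the GC-rich bin the genes have a median of 0.23 and all genes 0.13, and by length the lines lie close together.

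With a smooth correction for length and GC content in each library, 5 genes (6.25%) rose at 12 months, where 8.91% of all genes rose, and 0 fell, where 8.62% fell. The 5 were Cox7b (0.29 ± 0.06; adjusted p = 0.00714), Ndufa4 (0.20 ± 0.06; 0.0220), Ndufa1 (0.24 ± 0.08; 0.0453), Atp5g1 (0.28 ± 0.09; 0.0454) and Cox5b (0.17 ± 0.06; 0.0460). The median over the 80 genes was then 0.00, and by complex it was 0.10 for complex IV, 0.02 for complex V, 0.01 for complexes II and III and -0.01 for complex I. The change of Cox8a was 0.08, that of Cox4i1 0.11, that of Ndufa11 0.29, that of Ndufa4l2 0.41 and that of Ndufs1 -0.13, none of them called. Uqcr11 (0.04), Ndufb7 (0.02), Ndufb11 (0.08), Atp5d (0.06), Atp5e (0.09) and Cox6b1 (0.14) were not called either. Ndufa4 was called with the correction at 9 months (0.21 ± 0.05; adjusted p = 0.00893), at 12 months and along the trend. The value fitted from length and GC content alone averaged 0.10 over the 12 month libraries for the 80 genes, where their own median averaged 0.09. For complex IV these values were 0.11 and 0.19.

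Other mitochondrial genes were looked at beside these changes; at 12 months 10.9% of all genes tested rose and 11.5% fell. Of 18 tricarboxylic acid cycle genes 0 rose and 3 fell at 12 months (median -0.06), among them Idh3a, a catalytic subunit of isocitrate dehydrogenase (91.6 ± 4.01 CPM at 12 months and 117 ± 8.03 CPM at 3 months; change -0.36 ± 0.09; adjusted p = 0.00913). Of 76 genes for proteins of the mitochondrial ribosome 1 rose and 2 fell (median 0.00), and of 83 for the cytosolic ribosome, which also have short transcripts, 4 rose and 1 fell (median 0.04). Of 14 complex I assembly factors 2 rose, Ndufaf3 (0.34 ± 0.10) and Acad9 (0.26 ± 0.08), and Ndufaf2 fell (-0.37 ± 0.13). Of 28 assembly factors of complexes II to V, Coa3, which acts early in the assembly of cytochrome c oxidase, rose (0.30 ± 0.09; adjusted p = 0.0172). Lrpprc, which stabilises mitochondrial messenger RNA and is needed for cytochrome c oxidase, fell (-0.35 ± 0.10; adjusted p = 0.0191). With the length and GC correction 0 of these 28 assembly factors rose and 0 fell. Then 0 tricarboxylic acid cycle genes rose and 1 fell, and 1 complex I assembly factor rose and 1 fell. For the mitochondrial ribosome 3 rose and 2 fell, and for the cytosolic ribosome 1 rose and 6 fell. Of all genes tested 8.91% rose and 8.62% fell with the correction.

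The 17 genes of electron carriers and other quinone reductases had a median change of -0.03 at 12 months. None passed the adjusted threshold by edgeR, and 1 fell with the length and GC correction. Of 11 genes of ATP and phosphate exchange 2 rose and 2 fell, of 22 import genes 1 rose and 3 fell, and of 18 genes of mitochondrial dynamics and mitophagy 1 rose. Of 15 glycolysis genes 4 rose and 2 fell (median 0.15), against the same 10.9% and 11.5% of all genes, with Gapdh at 659 ± 70.5 CPM at 12 months and 527 ± 26.8 CPM at 3 months (change 0.32 ± 0.07; adjusted p = 0.00632). With the length and GC correction 1 glycolysis gene rose and 2 fell (median 0.06). Of ATP and phosphate exchange 1 then rose and 1 fell, of import 0 and 2, and of dynamics and mitophagy 0 and 1.

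Regulators of respiratory chain genes moved in both directions. Of 20 regulators of mitochondrial biogenesis 1 rose and 6 fell at 12 months (median -0.14), where 10.9% of all genes rose and 11.5% fell. With the length and GC correction 1 of the 20 rose and 4 fell. Esrra, which encodes the oestrogen-related receptor ERRA, had 32.4, 25.9, 39.9 and 31.9 CPM at 12 months and 18.2, 23.2, 19.6, 20.7 and 17.8 CPM at 3 months, with no overlap, and rose by 0.71 ± 0.12 (adjusted p = 0.00136). Nrf1, which encodes the factor whose letters are marked in Cox6a1, Sdha and Ndufa11 above, had 30.2, 34.5, 30.9 and 37.0 CPM at 12 months and 41.8, 41.5, 39.4, 43.7 and 42.4 CPM at 3 months. All its 12 month values lay below all its 3 month values (change -0.33 ± 0.07; adjusted p = 0.00470). Ppara, a nuclear receptor that drives fatty acid oxidation, fell to 17.9 ± 1.78 CPM at 12 months, against 37.5 ± 4.87 CPM at 3 months (SD, n = 4 and 5; change -1.07 ± 0.17; adjusted p = 0.000823). Pprc1, a coactivator related to PGC-1, changed by -0.39 ± 0.13 (adjusted p = 0.0346).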

How the data were processed

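RNA-seq libraries of whole ovaries were made with a kit that keeps strand, per the labels' protocols. The authors deposited estimated counts per gene, which need not be whole (17.5 to 21.6% of nonzero values per library are whole within 1e-06), and, per the file headers, a table of normalized log2 values whose scaling the labels do not describe. The submitters' processing notes name mm10. For the aligner, the counter and strand use the entry is: not given in the sources used here. Across the deposited files 2 columns of per-library values match no sample and were not used.

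Here the deposited estimated counts were rounded, filtered (minimum count 10, minimum total 15) and fitted over all 19 libraries with edgeR 4.0.16 in R 4.3.3 (TMM, robust quasi-likelihood, a mean per age, or age as a number with the change given over 9 months), with Benjamini-Hochberg adjustment over all 15518 genes and a threshold of 0.05. CPM use TMM factors. Alternatives were DESeq size factors, DESeq2 1.42.0, limma-voom and limma-trend (limma 3.58.1), other filters, fewer libraries, a luteal covariate and a per-library correction for length and GC content (splines with 5 degrees of freedom, known for 95.7% of genes tested). Transcript length and GC content are medians over GENCODE transcripts that match a RefSeq messenger RNA. The length of Atp5g1 is uncertain. Steps were tested on simulated counts.

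The members, gene lists, alternatives and the rule for named genes were chosen with earlier results of these data known. The rule names genes called at 12 months or along the trend, called at 9 or 6 months, all of complex II, isoform pairs, and the highest and lowest level per length of each complex, with up to 4 genes of each other list; it gives 45 genes of the 85, of which the text prints a part. Ndufv1, Ndufv2, Ndufs3, Ndufs7, Ndufs8, Ndufa6, Uqcrfs1, Uqcrc1, Uqcrc2, Cox7c, Atp5a1, Atp5j and Atp5j2, and those called only without some libraries, were added after their values were seen. Of the genes tested, 1 is counted but not reported here by name or in the plot of changes. Of the 85 genes 27 overlap another gene in RefSeq, 5 of them among the 15 called at 12 months (Atp5d, Ndufa1, Ndufa4l2, Ndufb11 and Ndufs1), and many have processed pseudogenes, so their counts are uncertain to that extent. Libraries of 1 age differed by more than counting noise (chi-square per degree of freedom 5.11 to 38.8), so none was counted as a repeat. The NRF1 and YY1 letters searched in promoters were shortened by 1 base after a longer form had been counted.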

Additional observations from a re-analysis of the deposited data

Results flagged for a closer look

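Of 200 groups of libraries checked for 1 library apart from the others of its age (Dixon's test), 20 were found, and chance flags about 1 in 20 groups. Where all other libraries of an age are at 0, any value above 0 is flagged. That holds for Cox7b2 at 3 and 9 months and Cox6a2 at 12 months, so those flags carry no weight.

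Replicate 2 of the 6 month libraries stood above the other 4 for Ndufb9 (104 CPM, against 91.0 to 94.1), Sdhc (132 CPM, against 107 to 113), Sdhd (132 CPM, against 116 to 119), Cox6a1 (122 CPM, against 102 to 107) and the median of complex IV (-0.0165, against -0.155 to -0.129, log2 relative to 3 months).

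At 12 months, replicate 2 stood below the others for the median of complex IV (0.0025, against 0.229 to 0.264); it is the library with the most lymph node transcripts, whose part was not tested. Replicate 3 stood below for Ndufs1 (123 CPM, against 136 to 139), and replicate 4 stood above for Atp5b (1107 CPM, against 986 to 1003) and Cox6a2 (0.578 CPM, against 0).

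At 9 months, replicate 2 stood below the others for Uqcr10 (52.1 CPM, against 62.3 to 64.5) and Cox5b (86.0 CPM, against 94.3 to 97.0), and replicate 4 for Cox4i1 (327 CPM, against 369 to 385). Replicate 1 stood above for Cox8b (4.50 CPM, against 0 to 0.609) and Cox7b2 (0.158 CPM, against 0).

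At 3 months, replicate 3 stood above the others for Cox8b (3.30 CPM, against 0.0729 to 0.729) and Cox6a2 (0.274 CPM, against 0 to 0.0750), and replicate 4 for Cox7b2 (0.0729 CPM, against 0). Replicate 4 stood below for Uqcr10 (48.8 CPM, against 55.5 to 57.1) and replicate 5 for Cox8a (117 CPM, against 122 to 124). Replicate 5 of the 6 month libraries stood below for Cox7a2l (203 CPM, against 229 to 239).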

How the results depend on the processing

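The 15 calls at 12 months became 7 when only the ages compared were fitted, 5 with the length and GC correction, 24 without the 3 libraries with lymph node transcripts and 7 with both changes, the last chosen after the data were seen. Leaving out 1 library each gave 6 to 23 calls at 12 months, 2 to 10 at 9 months, 0 to 0 at 6 months and 13 to 26 along the trend. The 5 calls at 9 months became 9 with DESeq2, 10 with limma-voom, 2 with the length and GC correction and 12 without the lymph node libraries, and the 0 calls at 6 months became 1 with limma-voom. The 21 calls along the trend became 7 with the length and GC correction and 11 with both changes. Of 1230 values of single genes under these alternatives, 1121 kept their side of the threshold, 75 lost a call, 34 gained one and 0 calls reversed. The sign of a change could still differ. At 12 months the median of the 3 c ring genes was 0.13, and -0.05 with the length and GC correction. For the fits without 1 library, with only the ages compared or with other tools, the share of all genes called is not given here. Those counts cannot be read as particular to the respiratory chain genes. The cause of these differences was not tested. No paired analysis was possible because the labels give no replicate numbers that the ages share. With 4 or 5 libraries an age and about 10851519 to 14302207 counts each, the 5 genes that did not pass the filter on low counts (Cox6a2, Cox7b2, Cox8b, Cox8c and Atp5l2) were not tested between ages.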

Other observations

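All 3 of the respiratory chain genes on the X chromosome, Ndufa1, Ndufb11 and Cox7b, rose at 12 months, where 39 of 540 X-linked genes tested (7.22%) rose and the median change of X-linked genes was -0.04. The X chromosome was looked at after these values were seen. The call on Ndufb11 was lost without any 1 of 7 libraries and that on Cox7b without any 1 of 4. With the length and GC correction Ndufb11 was not called.

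Among genes that supply or use mitochondrial ATP, Ckmt1, a mitochondrial creatine kinase, had 23.0, 9.38, 30.8 and 8.32 CPM at 12 months and 6.75, 4.82, 3.52, 9.17 and 2.84 CPM at 3 months (change 1.72 ± 0.37; adjusted p = 0.00451, edgeR's quasi-likelihood test). Slc25a31, an ADP/ATP carrier of germ cells, averaged 0.686 ± 0.401 CPM at 12 months and 1.71 ± 0.416 CPM at 3 months (SD, n = 4 and 5; change -1.31 ± 0.39; adjusted p = 0.0228), beside the fall of all 8 oocyte marker genes. Ldhb, a lactate dehydrogenase subunit, averaged 227 ± 26.1 CPM at 12 months and 295 ± 22.4 CPM at 3 months (SD, n = 4 and 5; change -0.38 ± 0.08; adjusted p = 0.00386).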
